A study of Rattus norvegicus with 48 samples.

Results

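Rat KRT-19-positive preneoplastic nodules taken after 4 d of T3 were set against control liver, 10 arrays against 8, chosen by their titles, which makes 18 of the 48 arrays of the study. Such nodules are clusters of altered hepatocytes that can precede liver cancer. KRT-19 is a cytokeratin found in biliary epithelium and in progenitors, and T3 is triiodothyronine, the active thyroid hormone. The 10 arrays of untreated KRT-19-positive nodules served to define the nodule state from which the treated nodules had started. All arrays carried liver RNA of male Fischer rats. The dose of T3, the way nodules were induced and dissected, and whether each array came from its own animal are not stated in the sources used here, so p-values reflect only how these samples vary, and part of that may be technical. Each sample was a piece of tissue, in which fewer cells of a type and less RNA per cell cannot be told apart.

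Thyroid hormone acts on hepatocytes through nuclear receptors, mainly the beta form encoded by Thrb, which bind beside target genes and recruit coactivators when T3 is bound. Known targets in rat liver include the deiodinase Dio1, the mitochondrial glycerol phosphate dehydrogenase Gpd2 and malic enzyme Me1. T3 is also known as a mitogen for rat hepatocytes. Preneoplastic hepatocytes of the rat are classically recognised by the placental glutathione transferase Gstp1 and by other enzymes that depend on NRF2, a transcription factor of the antioxidant response.

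On each array between 8838 and 10379 of 22523 probes were detected above background at T3 4 d, against 8744 to 9682 in control liver. Alb, albumin, the defining hepatocyte product, stood between 14.44 and 14.90 on the log2 intensity scale at T3 4 d, against 14.10 to 14.90 in control liver, near the upper end of the scale, where the brightest probe reached 15.27. The T3 4 d arrays were not alike. Arrays 1, 3, 8 and 9 lay apart from the other 6 on the second principal component of the T3 4 d and control arrays, with scores of 35.3, 27.4, 10.1 and 5.4 against a range of -28.9 to -12.3. This component held 11.2% of the variance, and the first, which separated the groups, held 43.9%. The same 4 arrays were the 4 highest of the T3 4 d group for Gstp1. They were kept, and results that rest on them are also given without them, a choice made after the data were seen. Whether this split is of the tissue or of the samples' handling was not tested.

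After 4 d of T3 the nodules differed from control liver in 4857 of 11558 features, which is 42% of those tested, at an adjusted p under 0.05 from the limma fit. Higher features numbered 2505 (21.7%) and lower features 2352 (20.3%). These shares are the ones to set beside the counts of gene lists below. A difference of at least 2-fold as well was found for 490 higher features (4.24%) and 355 lower ones (3.07%), 845 in all (7.31%). Every T3 4 d array lay above every control array for 734 features (6.35%) and below every control array for 607 (5.25%). Untreated nodules differed from control in 5629 features (48.7%), and the 1348 that did so by at least 2-fold (11.7%), 767 higher (6.64%) and 581 lower (5.03%), are called the nodule state here. When arrays were scaled to one median instead of quantile normalised, 62.5% of the called features were higher at T3 4 d, against 51.6% in the quantile setting.

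Of the 1348 features of the nodule state, 749 (55.6%) still differed from control in the direction of the nodule at T3 4 d, 400 above control and 349 below it. A further 73 (5.42%) had passed control and differed from it in the opposite direction, 48 above and 25 below. Under median scaling the split was 626 above and 168 below control for those that remained, and 16 above and 63 below for those past control, so both splits depended on the scaling. The remaining 526 (39%) were not called, and for 473 of them the 95% confidence interval of the difference lay within 2-fold of control. Another 213 features were not called in untreated nodules and differed from control by at least 2-fold at T3 4 d, 150 above and 63 below. The adjusted p of a gene named below is the one that placed it in its class. Both comparisons used the same 8 control arrays, so an error in the control mean enters both, and these counts are descriptions. Without arrays 1, 3, 8 and 9 the number that remained was 544, the number past control 106 and the number not called 698.

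The features that remained above control had a median log2 difference of 1.5 on array 1, 1.5 on array 3, 1.17 on array 8 and 1.13 on array 9, and of 0.66 to 0.78 on the other 6 arrays. Those that remained below control had medians of -1.4, -1.43, -1.11 and -1.05 on the same 4 arrays, and of -0.88 to -0.8 on the others. For features past control on the high side the order was turned, with 0.27, 0.37, 0.59 and 0.62 on arrays 1, 3, 8 and 9 and 0.77 to 0.97 on the others. The 150 features outside the nodule state and above control spanned 1.15 to 1.38 over the arrays, a narrower range than in the other 3 sets. In those 3 sets arrays 1, 3, 8 and 9 were nearest to the untreated nodules, with arrays 1 and 3 nearest of all.

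Among 31 measured enzymes that depend on NRF2, 20 were higher than control and 2 lower at T3 4 d, with a median log2 difference of 0.77, against a median of -0.003 over all features. In untreated nodules 27 of them were higher than control and none lower, with a median of 1.66. Without arrays 1, 3, 8 and 9 the T3 4 d counts were 15 higher and 4 lower, with a median of 0.3. The core of the antioxidant response element, to which NRF2 binds with a small Maf partner, reads TGACNNNGC, N being any base. It was present on either strand in the 250 bases before the start of 7 of 26 of these genes that had a promoter in the RefSeq table (26.9%), against 10.2% of all 27457 promoters of the table and 12.7% of those of measured genes. A match is a description of the sequence and not a site of binding. The 150 bases before the start of Gstp1, Gsta3 and Gpx2 (RefSeq, GRCr8, on the gene's strand) are shown as examples, with the match in capitals. They were picked among the 7 genes with a match, so they do not show how often the most raised enzymes carry it. The first base of the match lies 61, 17 and 13 bases before the start. Gstp1 lies at chr1:210769706-210769855 for the stretch shown, minus strand, Gsta3 at chr9:31154839-31154988, plus strand, and Gpx2 at chr6:101230034-101230183, minus strand. The match of Gpx2 is read from the other strand.
Gstp1: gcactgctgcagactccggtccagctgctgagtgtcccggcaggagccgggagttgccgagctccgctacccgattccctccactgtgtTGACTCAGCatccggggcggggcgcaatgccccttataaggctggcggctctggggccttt
Gsta3: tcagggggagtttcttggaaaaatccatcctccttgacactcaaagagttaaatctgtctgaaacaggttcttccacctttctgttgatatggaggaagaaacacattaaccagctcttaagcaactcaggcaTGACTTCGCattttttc
Gpx2: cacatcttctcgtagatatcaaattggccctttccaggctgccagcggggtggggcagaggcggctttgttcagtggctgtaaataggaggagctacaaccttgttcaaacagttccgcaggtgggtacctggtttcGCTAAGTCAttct

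Gstp1 RNA was still 13.5-fold above control at T3 4 d. Its lowest, median and highest log2 intensities were 9.36, 10.48 and 14.50 at T3 4 d, 14.35, 15.15 and 15.27 in untreated nodules and 6.93, 7.86 and 8.23 in control liver. Every T3 4 d array lay above every control array. The arrays at T3 4 d fell into a high set, with 14.5, 14.1, 13.0 and 13.2 on arrays 1, 3, 8 and 9, and a low set of 9.4 to 10.6 on the other 6. The log2 difference from control was 3.75 ± 0.53 (standard error, limma adjusted p = 7.22e-08), and without the 4 arrays it was 2.28 (limma adjusted p = 2.58e-05). The second kept probe of the gene gave 2.08.

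Gsta3, an alpha-class glutathione transferase, was the gene with the largest rise against control. It measured 9.58, 10.03 and 11.95 (lowest, median and highest) at T3 4 d, against 4.81, 5.18 and 5.73 in control liver, where it was detected on 2 of 8 arrays. No T3 4 d array came near the control range. The difference of 5.32 ± 0.34 on the log2 scale, 4.63 without the 4 arrays, compares with 6.60 in untreated nodules. Akr1b8, an aldo-keto reductase, stood at 6.48, 8.38 and 12.27 at T3 4 d, against 5.00, 5.38 and 5.89 in control liver, with a log2 difference of 3.73 ± 0.60, and 2.16 without the 4 arrays, where untreated nodules had 7.84. All 10 T3 4 d arrays exceeded the highest control, and arrays 1, 3, 8 and 9 were again the highest, between 10.6 and 12.3. Gpx2, a glutathione peroxidase, remained above control by 2.68 and Akr7a3, an aflatoxin aldehyde reductase, by 1.98, where untreated nodules had been higher by 6.18 and 5.24. The ranges of both genes at T3 4 d and in control did not overlap, and without the 4 arrays the differences were 1.72 for Gpx2 and 1.25 for Akr7a3.

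Nqo1, a quinone reductase, had come closer to control, with 9.43, 9.83 and 12.00 at T3 4 d, against 8.61, 8.98 and 9.57 in control liver. Its ranges overlapped, and the log2 difference of 1.44 ± 0.28 (limma adjusted p = 2.89e-05) dropped to 0.67 without the 4 arrays. Abcc3, an exporter of conjugates and bile salts, had 11.0, 10.9, 10.1 and 10.0 on arrays 1, 3, 8 and 9, 6.5 to 7.5 on the other 6 and 5.91 to 6.62 in control liver. Its difference was 2.06 (limma adjusted p = 0.000242) over all arrays and 0.63 without the 4 (limma adjusted p = 0.12), so its call rested on them. Gclc, the catalytic subunit of the first enzyme of glutathione synthesis, remained higher by 1.37, and Gsr, which recycles oxidised glutathione, by 1.21. Against most of the list, Gsta2 fell by 0.84 and Gstm2 by 0.85, the first of which had been higher than control by 1.61 in untreated nodules.

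Of 23 measured markers of preneoplastic nodules, 16 were higher and 2 lower than control at T3 4 d, with a median log2 difference of 1.53, where untreated nodules had 20 higher, 2 lower and a median of 3.74. Without the 4 arrays 12 were higher and 1 lower, with a median of 0.94. Several members are also on the NRF2 list. Krt19 itself measured 7.47, 7.92 and 8.77 at T3 4 d, 11.03, 11.65 and 12.73 in untreated nodules and 5.67, 6.39 and 7.94 in control liver. Only the highest control array reached the T3 4 d range, in which all arrays lay below every untreated nodule. The log2 difference from control was 1.52 ± 0.40 (limma adjusted p = 0.00178). Over the 44 alternative settings it ran from 0.841 to 1.727 and stayed called, with a highest limma adjusted p of 0.0369. Epcam, an adhesion protein of progenitor and bile duct cells, spanned 8.12 to 9.26 at T3 4 d, against 7.65 to 8.25 in control liver, a difference of 0.74 that missed the threshold without the 4 arrays (limma adjusted p = 0.0505). Cd24 (1.88), Gpc3 (1.69) and Prom1 (1.75), further surface proteins of progenitor cells, remained above control on every T3 4 d array. On none of the 8 control arrays was Prom1 above background, so its level was at least 2.11-fold higher at T3 4 d, and 1.97-fold without the 4 arrays. Its difference from untreated nodules did not pass the test (0.09, limma adjusted p = 0.758).

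**Figure D1:**
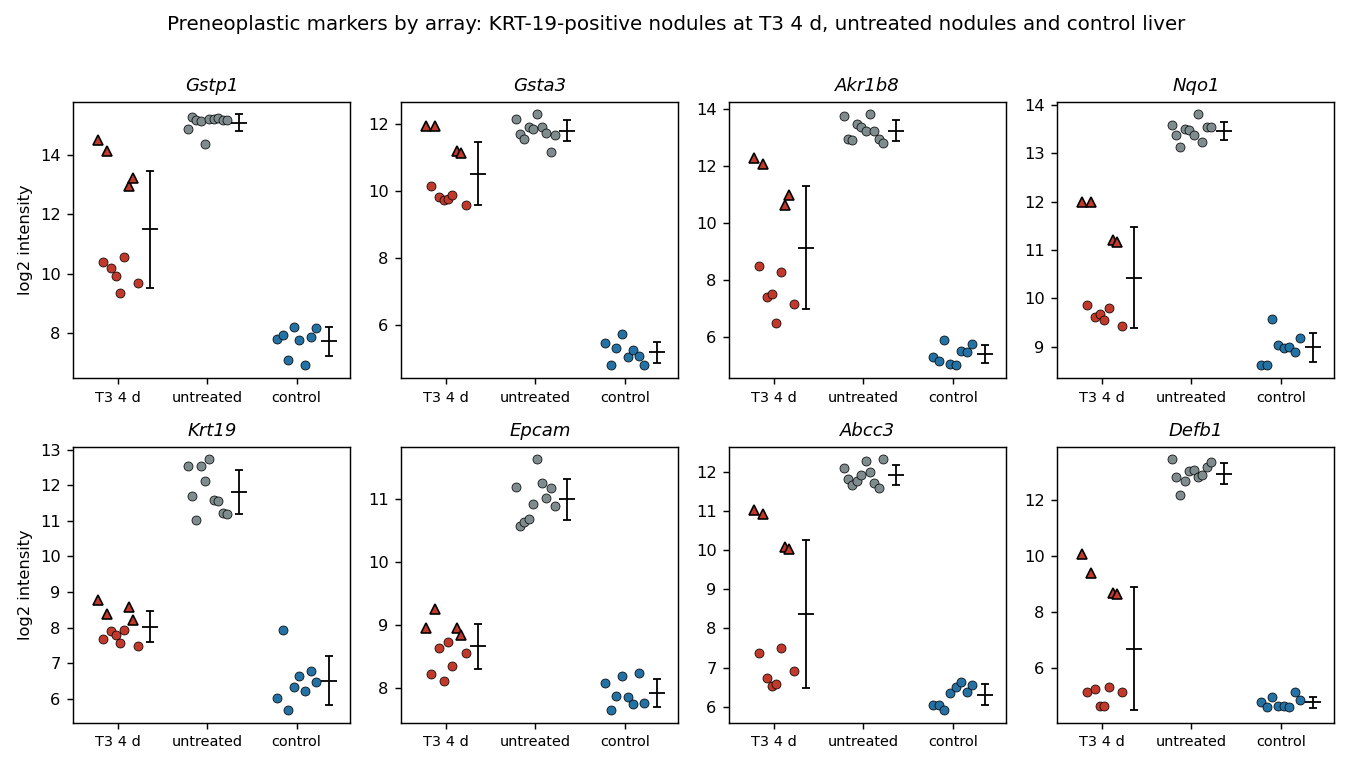
Log2 intensity (vertical axis) of 8 genes on each array at T3 4 d, in untreated KRT-19-positive nodules and in control liver. Points are arrays, triangles are T3 4 d arrays 1, 3, 8 and 9, and the bar beside each group is its mean ± SD. For Gstp1, Akr1b8, Nqo1, Abcc3 and Defb1 the triangles lie well above the 6 circles, and for Gsta3 all 10 lie at 9.58 or higher, far above control.

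For a few genes detection at T3 4 d was limited to those 4 arrays. Defb1, an antimicrobial defensin, was detected on 4 of 10 T3 4 d arrays and on none of the 8 control arrays. Its values were 10.1, 9.4, 8.7 and 8.6 on arrays 1, 3, 8 and 9, 4.6 to 5.3 on the other 6 and 4.62 to 5.14 in control liver, while untreated nodules held 12.18 to 13.44. Nefl, the light neurofilament protein, was likewise detected on these 4 arrays, at 8.4 to 10.3, and on no other array of either group. Without the 4 arrays the log2 differences from control were 0.24 for Defb1 (limma adjusted p = 0.83) and 0.11 for Nefl (limma adjusted p = 0.893).

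Odc1, ornithine decarboxylase of polyamine synthesis, measured 9.72, 9.87 and 10.01 at T3 4 d, 9.08 to 9.84 in untreated nodules and 4.53, 4.66 and 8.29 in control liver. Its T3 4 d arrays lay close together, whereas in control liver it was detected on 2 of 8 arrays. The difference from control was 4.38 ± 0.30, taken against a group in which most arrays were not above background, and that from untreated nodules was 0.47 (limma adjusted p = 0.164). That test used a spread shared by all groups, and control liver ran from 4.53 to 8.29. It therefore does not show that the nodule groups were alike. Aldh1a1, a retinaldehyde dehydrogenase, stayed 8.15-fold above control, Ugt1a6, a phenol glucuronosyltransferase, 14.3-fold and Cd36, a fatty acid uptake protein, 6.72-fold, with no overlap of the ranges. Ropn1, a sperm flagellum protein, was not detected on any of the 8 control arrays. It was at least 6.02-fold higher at T3 4 d, with 7.62 to 8.71, and at least 4.95-fold without arrays 1, 3, 8 and 9. Myc, a growth-promoting transcription factor, remained higher by 1.88, with ranges that touched, and cyclin D1 (Ccnd1), a driver of cell cycle entry, by 1.06, beside 1.08 in untreated nodules. The drug exporter Abcb1b stayed higher by 3.09, and by 2.01 without arrays 1, 3, 8 and 9, which held its 4 highest values of the group.

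Genes that differ between male and female rat liver made up part of the deficit that remained. Of 22 measured sex-dependent genes 10 were lower and 4 higher than control at T3 4 d, with a median log2 difference of -0.52, and 16 were lower in untreated nodules, with a median of -1.38. The T3 4 d counts without the 4 arrays were 8 lower and 4 higher, with a median of -0.33. Cyp2c11, the male-specific cytochrome P450 of rat liver, measured 4.89, 12.52 and 12.68 at T3 4 d, 9.75, 11.85 and 13.44 in untreated nodules and 14.34, 14.59 and 15.23 in control liver. Every T3 4 d array was below every control array. Arrays 1 and 3, at 5.2 and 4.9, were below all untreated nodules too and not above background. The fall of 3.95 ± 0.80 (limma adjusted p = 5.47e-05) became a difference of -2.14 without arrays 1, 3, 8 and 9 (limma adjusted p = 0.0032).

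Its female counterpart Cyp2c12 moved the other way, with 10.97, 11.66 and 15.13 at T3 4 d, against 7.94, 9.41 and 10.03 in control liver. Arrays 1, 3 and 9, at 15.0, 15.1 and 14.2, were above every untreated nodule, whose highest was 13.77, and without the 4 arrays the difference of 3.30 became 2.03. Obp3, an odorant-binding lipocalin of male rat liver, stood at 4.8 and 6.1 on arrays 1 and 3 and at 11.5 to 13.2 on the other 8, against 12.98 to 14.12 in control liver and 5.26 to 10.33 in untreated nodules. The call of Obp3 (difference -2.21, limma adjusted p = 0.0303) was lost when array 1 was left out (-1.49, limma adjusted p = 0.101) or array 3 (-1.64, limma adjusted p = 0.0927). Without all 4 arrays it was -0.48 (limma adjusted p = 0.63). The steroid enzyme Hsd3b5 (-2.16, and -1.42 without the 4 arrays), the vasopressin receptor Avpr1a (-2.09), the growth hormone receptor Ghr (-1.10) and the growth factor carrier Igfals (-1.20) stayed below control with ranges apart. Prlr, the prolactin receptor, was higher by 2.45 and had not been called in untreated nodules.

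Among 36 measured cytochromes P450 of drug and steroid metabolism 15 were lower and 3 higher than control, with a median of -0.35, where untreated nodules had 28 lower and 2 higher and a median of -0.93. Leaving out the 4 arrays gave 11 lower and 4 higher at T3 4 d, with a median of -0.2. With every array kept, 20.3% of all features were lower and 21.7% higher. Cyp3a9 fell by 3.55 (2.88 without the 4 arrays) and Cyp3a18 by 2.83, and neither reached control on any array. Bile acid genes were lower in 10 of 19 and higher in 4 at T3 4 d, with a median of -0.48, against 15 lower in untreated nodules and a median of -1.13. At T3 4 d without the 4 arrays 9 were lower and 2 higher, with a median of -0.38. Cyp8b1, the sterol hydroxylase that leads to cholic acid, measured 9.47, 11.50 and 11.81 at T3 4 d, against 12.83, 13.24 and 13.62 in control liver. These ranges did not meet, and the difference was -2.12 ± 0.34 (limma adjusted p = 9.83e-07). Baat, which couples bile acids to amino acids, was lower (-1.40) and had the same deficit in untreated nodules (-1.37). The bile acid receptor Nr1h4 stayed lower (-1.03), whereas Cyp7a1, the first enzyme of the classical route, was no longer called (0.46, limma adjusted p = 0.199).

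Some hepatocyte genes had recovered part of the way. Aox3, an aldehyde oxidase, measured 5.80, 9.48 and 9.69 at T3 4 d, 5.17, 6.12 and 7.79 in untreated nodules and 10.70, 10.85 and 11.26 in control liver. The T3 4 d arrays were below control throughout, and arrays 1 and 3, at 5.8 and 6.1, were within the untreated range. Its difference was -2.33, and -1.36 without the 4 arrays. Angptl4, a secreted inhibitor of lipoprotein lipase, differed from control by -1.79 at T3 4 d and by -4.54 in untreated nodules. Irs3, an insulin receptor substrate of rodents, showed no recovery, with 5.30, 5.61 and 6.39 at T3 4 d, 5.44 to 6.10 in untreated nodules and 8.60, 9.75 and 10.19 in control liver. The nodule groups overlapped each other and lay far from control, with differences of -3.87 at T3 4 d and -3.79 in untreated nodules. Dhrs7l1, a gene of the short-chain dehydrogenase family, was lower (-3.98) at T3 4 d, and by -2.77 without the 4 arrays. Igf2, a fetal growth factor, fell by 1.29 on T3 4 d arrays and was detected on 1 of them. Afp, the fetal serum protein alpha-fetoprotein, was lower (-0.43) (limma adjusted p = 0.0154), a call that ended without the 4 arrays (limma adjusted p = 0.252).

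Of the 749 features that remained, 542 differed between T3 4 d and untreated nodules (53.7% of all features did), 488 towards control and 54 farther from it. Since the untreated arrays chose these features, the moves are descriptions. As a list, mitosis genes lay farther from control than in untreated nodules, though only 7 of them were among the features that remained. Of 29 measured, 27 were higher than control at T3 4 d and none lower, with a median log2 difference of 1.37, where untreated nodules had 19 higher, 1 lower and a median of 0.65. DNA replication genes were higher in 12 of 23, with none lower, and a median of 0.41 at T3 4 d and 0.35 in untreated nodules.

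Promoters of mitosis genes often carry the cell cycle homology region TTTGAA, which binds repressor complexes in resting cells, and the CCAAT box. On either strand within 250 bases before the start, TTTGAA was found in 11 of 24 mitosis genes with a promoter in the table (45.8%), against 16.0% of all promoters and 10.7% of those of measured genes. CCAAT was found in 17 of the 24 (70.8%), against 34.3% of all promoters and 35.7% of those of measured genes. The 150 bases before the start of 3 mitosis genes that remained above control are shown from the same table and build to let the matches be seen, with TTTGAA in capitals. Cdk1 lies at chr20:19265143-19265292, plus strand, with matches beginning 72 and 16 bases before the start. Ccnb2 lies at chr8:79981659-79981808, minus strand, with a match 43 bases before it, and Prc1 at chr1:143659331-143659480, plus strand, with a match 18 bases before it. None of these matches overlapped another motif searched.
Cdk1: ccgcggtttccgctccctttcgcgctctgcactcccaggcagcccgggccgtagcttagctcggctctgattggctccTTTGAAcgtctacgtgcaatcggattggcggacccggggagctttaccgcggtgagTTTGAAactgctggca
Ccnb2: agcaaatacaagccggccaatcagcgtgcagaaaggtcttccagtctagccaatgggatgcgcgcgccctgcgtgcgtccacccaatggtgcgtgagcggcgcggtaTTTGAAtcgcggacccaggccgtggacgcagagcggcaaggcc
Prc1: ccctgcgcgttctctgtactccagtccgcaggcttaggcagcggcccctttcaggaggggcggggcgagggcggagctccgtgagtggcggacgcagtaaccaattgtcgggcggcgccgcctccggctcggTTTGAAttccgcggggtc

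Cdk1, the kinase that starts mitosis, measured 7.83, 8.87 and 9.08 at T3 4 d, 7.49, 7.70 and 8.79 in untreated nodules and 4.78, 6.04 and 7.20 in control liver. All T3 4 d arrays exceeded all controls, with a log2 difference of 2.64 ± 0.30 (limma adjusted p = 2.69e-10). Arrays 1 and 3 were the lowest at T3 4 d, at 7.8 and 8.1. Prc1, which bundles spindle microtubules, was higher by 2.28, cyclin B2 (Ccnb2) by 1.80, the checkpoint kinase Bub1 by 1.99 and the kinase Aurkb by 1.97. Bub1 and Aurkb did not belong to the nodule state. Rrm2, the subunit of ribonucleotide reductase that is made in dividing cells, measured 7.59, 9.08 and 9.38 at T3 4 d, 6.76, 7.29 and 7.74 in untreated nodules and 4.88, 5.27 and 6.14 in control liver. Its groups did not overlap except between T3 4 d and untreated nodules, and the difference from control was 3.42 ± 0.25, 10.7-fold, beside 1.80 in untreated nodules. Pcna, the sliding clamp of replication, rose by 1.12 and the helicase subunit Mcm6 by 1.41.

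Stac3, an adaptor known from excitation of skeletal muscle, had the largest difference of any named gene. It measured 4.67, 4.86 and 5.41 at T3 4 d, 7.83, 10.09 and 11.59 in untreated nodules and 12.53, 12.97 and 13.61 in control liver. Detection was met on 1 of 10 T3 4 d arrays, all of which were close to background, and on all 8 controls. The log2 difference was -8.08 ± 0.33 (limma adjusted p = 2.72e-26), and it was -7.98 without the 4 arrays. Ltc4s, which makes cysteinyl leukotrienes, was detected on 1 of 10 T3 4 d arrays too, with 4.57, 4.77 and 5.45, against 7.82, 8.59 and 9.69 in control liver.

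Cth, the enzyme that releases cysteine from cystathionine, measured 9.38, 9.89 and 10.21 at T3 4 d, 11.11, 11.64 and 11.97 in untreated nodules and 12.77, 13.02 and 13.36 in control liver. The 3 groups did not overlap, and the difference from control was -3.17 ± 0.12, beside -1.40 in untreated nodules. The taurine transporter Slc6a6 differed from control by -2.90, Rgn, a calcium-binding lactonase, by -2.90 and Nrep by -3.47. Over 44 genes of the urea cycle and amino acid catabolism 20 were lower and 7 higher, with a median of -0.25, and 37 were lower in untreated nodules, with a median of -0.71. After Cth the largest falls of the list were in the histidine-degrading enzymes Amdhd1 (-2.90) and Hal (-2.06), while Arg1, the arginase of the urea cycle, was higher than control by 1.11.

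On the high side Abcg5, a partner in the sterol exporter of the canalicular membrane, measured 11.18, 11.40 and 11.60 at T3 4 d, 8.00, 8.93 and 10.55 in untreated nodules and 6.74, 7.77 and 8.50 in control liver. The T3 4 d arrays were tightly grouped above both others. The difference from control was 3.72 ± 0.25, 13.2-fold, where untreated nodules had 1.27. Flywch1, a zinc finger protein, was higher by 3.08 at T3 4 d and by 1.32 in untreated nodules.

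**Figure D2:**
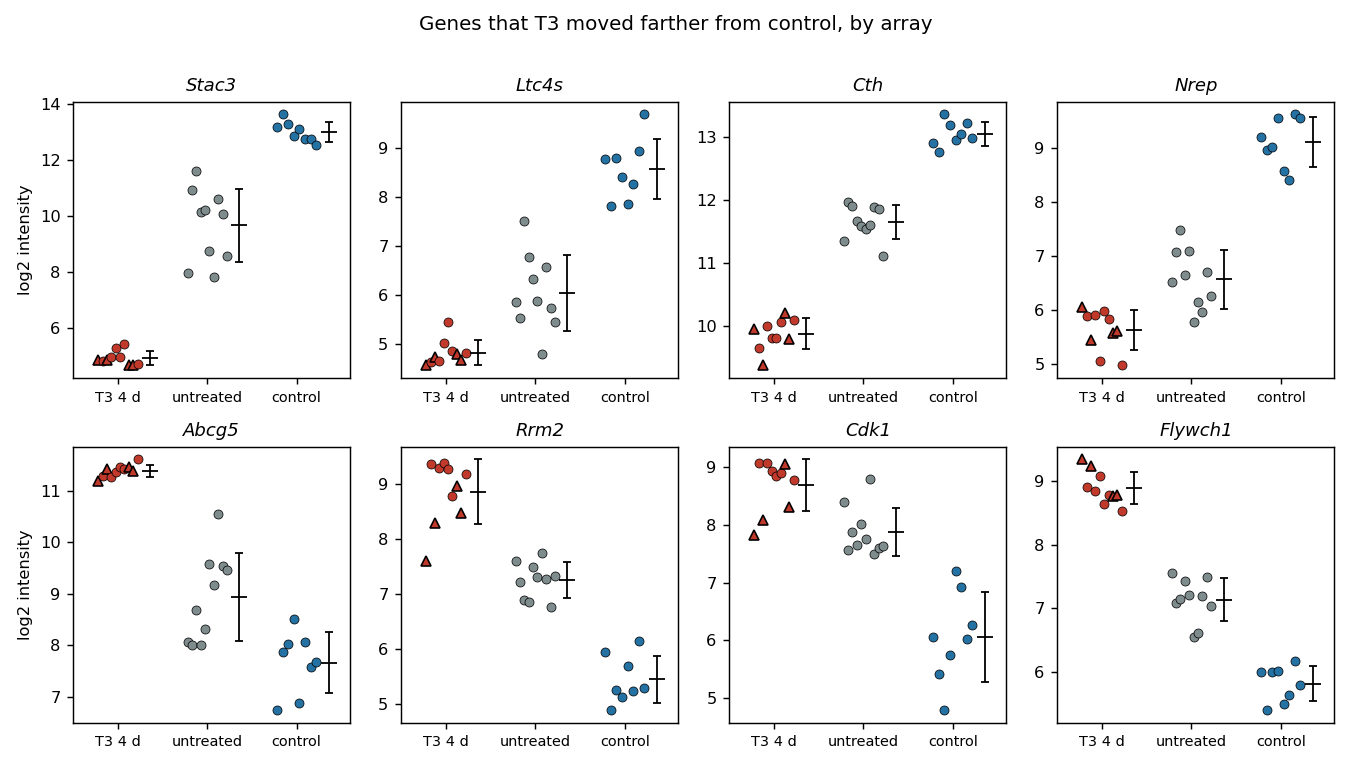
Log2 intensity of 8 genes that were farther from control at T3 4 d than in untreated nodules, by array, with mean ± SD beside each group and triangles for T3 4 d arrays 1, 3, 8 and 9. Stac3 and Ltc4s lie at the background at T3 4 d, and Cth forms 3 separate levels, while Abcg5, Rrm2, Cdk1 and Flywch1 have their highest mean at T3 4 d, a lower one in untreated nodules and the lowest in control.

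Many of the genes that differed most in untreated nodules were no longer called at T3 4 d. Pla2g7, which degrades platelet-activating factor, measured 4.65, 5.08 and 5.56 at T3 4 d, 8.35, 9.72 and 11.86 in untreated nodules and 4.76, 4.94 and 5.14 in control liver. Its T3 4 d and control arrays overlapped, with a difference of 0.14 and a 95% confidence interval of -0.56 to 0.84. Aldh3a1, an aldehyde dehydrogenase of preneoplastic nodules, was not above background on any array of either group, so no fold is given, whereas untreated nodules spanned 6.73 to 10.21. Cd44, the hyaluronan receptor (0.22), Col1a1, a fibrillar collagen chain (0.21), and Anxa2, a membrane-binding annexin (0.55, limma adjusted p = 0.122), were not called. For Anxa2 arrays 1, 3, 8 and 9 still held 8.1 to 8.8 against 6.6 to 6.9 on the other 6, and control liver 6.33 to 7.39.

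Of genes low in nodules, G6pc1, the glucose-releasing phosphatase of the liver, measured 13.44, 13.64 and 13.83 at T3 4 d, 8.83, 10.62 and 12.22 in untreated nodules and 13.15, 13.55 and 14.31 in control liver. The T3 4 d arrays lay wholly inside the control range, with a difference of 0.07 (95% confidence interval -0.46 to 0.60). Mfsd2a, a lipid transporter (0.05), and Cyp4a3, a fatty acid hydroxylase (-0.09), were not called either, with -3.35 and -2.55 in untreated nodules. Pdk4, the kinase that inhibits pyruvate dehydrogenase, differed by 0.30 and was not called (limma adjusted p = 0.22). It lay above control at 0.67 without the 4 arrays (limma adjusted p = 0.00479). Cyp1a2, a drug-metabolising cytochrome P450, differed by -2.97 in untreated nodules and by -0.67 at T3 4 d, with a limma adjusted p of 0.162, and its interval of -1.45 to 0.10 does not exclude a 2-fold deficit.

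Of the measured thyroid hormone targets 3 had passed control, 3 remained in the direction of the nodule and 5 of the nodule state were not called. Whether or not they belonged to the nodule state, 11 of 26 measured targets were higher and 4 lower than control at T3 4 d. Their median log2 difference was 0.38, where untreated nodules had 5 higher, 15 lower and a median of -0.59. Without arrays 1, 3, 8 and 9 there were 12 higher and 2 lower, with a median of 0.31. Dio1, the deiodinase of liver, measured 14.50, 14.59 and 14.78 at T3 4 d, 10.66, 11.19 and 12.12 in untreated nodules and 12.44, 12.71 and 13.27 in control liver. The 3 groups were wholly separate, with control in the middle. The difference from control was 1.87 ± 0.12, 3.65-fold (limma adjusted p = 1.12e-17), and untreated nodules differed by -1.51. Gpd2 gave 9.88, 10.34 and 10.59 at T3 4 d, 6.45, 6.91 and 7.28 in untreated nodules and 7.23, 8.40 and 9.10 in control liver. All T3 4 d arrays were above all controls, by 1.95 ± 0.17 on average. Cpt1a, which admits fatty acids to the mitochondrion, stood at 12.42, 13.15 and 13.37 at T3 4 d, against 11.19, 11.73 and 12.22 in control liver, a difference of 1.25 ± 0.15 without overlap.

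Members of the target list differed in direction. Me1, the malic enzyme, rose by 3.59 and Acaca, the acetyl-CoA carboxylase of fat synthesis, by 1.76, and neither belonged to the nodule state. Thrsp, a lipogenic protein, was higher by 0.47 with overlapping ranges, near the upper end of the scale (0.20 under median scaling, limma adjusted p = 0.542), and Klf9, a zinc finger factor, by 0.80. Angptl4, described above, was still below control, though less so than in untreated nodules. Among receptors, Thra was lower (-0.59, limma adjusted p = 0.00386), a call that ended under median scaling (-0.48, limma adjusted p = 0.108), and Thrb differed by -0.17 (limma adjusted p = 0.401), where untreated nodules had -0.95.

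Beyond the classical targets, Pdp2, the phosphatase that activates pyruvate dehydrogenase, measured 11.52, 12.01 and 12.22 at T3 4 d, 7.22, 8.08 and 8.67 in untreated nodules and 9.40, 9.68 and 10.23 in control liver. The groups were separate, and the difference from control was 2.16 ± 0.16, 4.46-fold. Elovl2, an elongase of polyunsaturated fatty acids, was higher by 1.87, with 9.58, 10.94 and 11.30 at T3 4 d, against 7.85, 8.95 and 9.63 in control liver, an overlap of 1 T3 4 d array. Trim36, a ubiquitin ligase, was the gene farthest past control on the high side, at 8.72, 9.73 and 10.02 at T3 4 d, against 5.24, 6.55 and 7.79 in control liver. No array of either group overlapped, and the difference was 3.10 ± 0.28. Mmd2 followed at 2.90. The liver-enriched factors Onecut1 (1.34) and Cebpa (0.70) were also above control, after -1.60 and -1.47 in untreated nodules. The call of Cebpa ended when control array 2 was left out (0.61, limma adjusted p = 0.0544) or control array 6 (0.57, limma adjusted p = 0.0691).

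Of the 25 features past control on the low side in the quantile setting (63 under median scaling), all but 1 had overlapping ranges. That 1 was Wfdc2, a secreted protein of the protease inhibitor type, with 8.23, 8.54 and 9.84 at T3 4 d, 11.15, 11.57 and 12.38 in untreated nodules and 10.13, 10.63 and 10.81 in control liver. Its difference from control was -1.78 ± 0.17 (limma adjusted p = 1.12e-12). Gsta2, an alpha-class transferase, measured 11.64, 11.97 and 12.98 at T3 4 d, 14.06, 14.62 and 14.90 in untreated nodules and 12.13, 12.98 and 13.44 in control liver. The T3 4 d and control arrays overlapped, and the 4 highest at T3 4 d were arrays 1, 3, 8 and 9. Its difference of -0.84 had the sign opposite to that of Gsta3, a member of the same class, at 5.32. Ier3, an early response gene, was lower than control by 0.75.

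**Figure D3:**
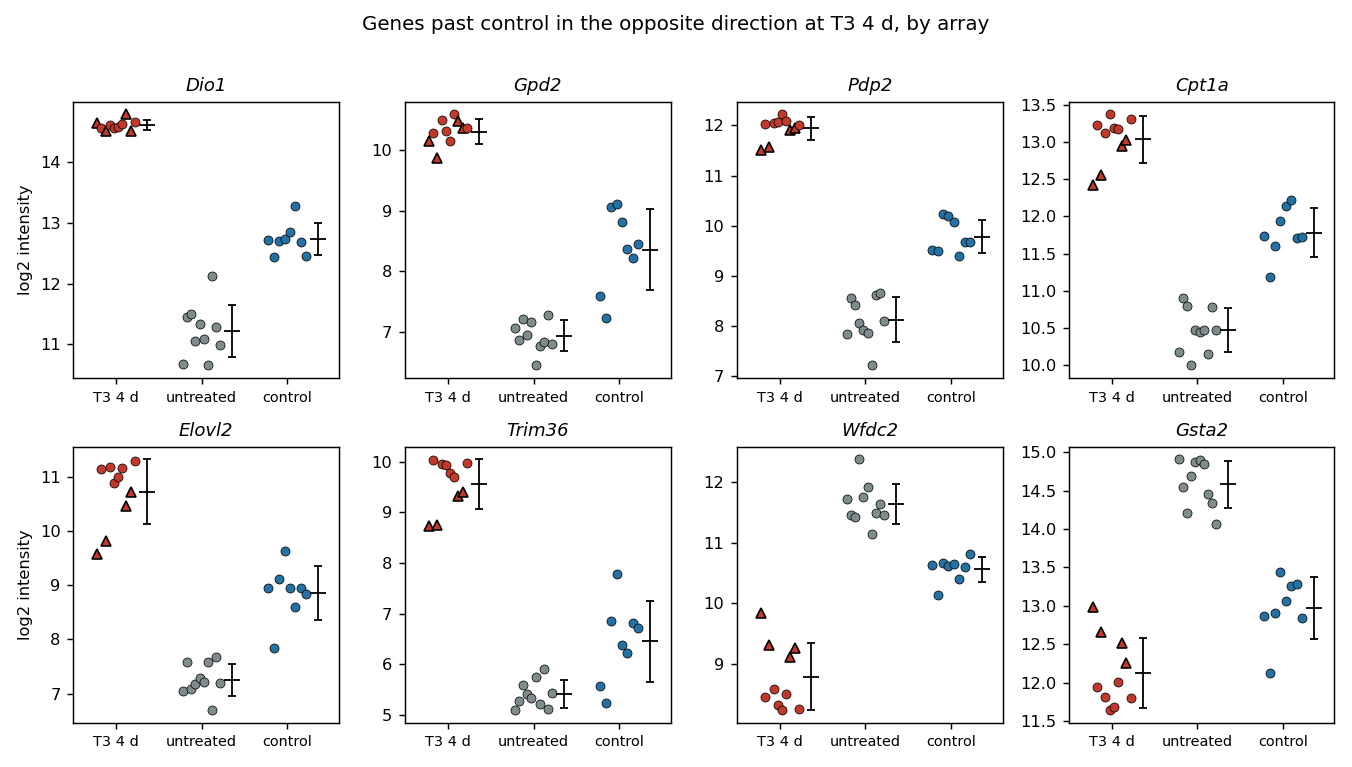
Log2 intensity of 8 genes that differed from control at T3 4 d in the direction opposite to the nodule change, by array, with mean ± SD beside each group and triangles for T3 4 d arrays 1, 3, 8 and 9. In the first 6 panels control lies between the lower untreated nodules and the higher T3 4 d arrays, and for Wfdc2 and Gsta2 this order is turned.

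A further set of genes differed strongly from control at T3 4 d without having been called in untreated nodules. Acot5, an acyl-CoA thioesterase, measured 9.92, 10.51 and 10.96 at T3 4 d, 4.67, 5.61 and 6.33 in untreated nodules and 4.85, 6.19 and 6.80 in control liver. Untreated nodules and control overlapped, and T3 4 d stood clear of both, at 4.39 ± 0.21 above control, 21-fold (limma adjusted p = 1.52e-23). Its relative Acot1 was detected on none of the control arrays and was at least 3.09-fold higher at T3 4 d. Igfbp2, a binding protein of insulin-like growth factors, measured 10.03, 10.30 and 11.00 at T3 4 d, against 5.94, 6.84 and 8.32 in control liver. That is a difference of 3.59 ± 0.34 with no overlap. Akr1b7, an aldo-keto reductase, was undetected on the 8 control arrays and had 6.83, 7.47 and 10.45 at T3 4 d, at least 7.09-fold higher. Without arrays 1, 3, 8 and 9 it was at least 3.18-fold higher, with a fitted difference of 2.41 (limma adjusted p = 1.51e-07). It then fell in none of the classes above, because untreated nodules were then called against control too, at less than 2-fold. Its 4 highest arrays were again 1, 3, 8 and 9, at 9.6 to 10.4, while the 6 others held 6.8 to 7.6.

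Nmu, the peptide neuromedin U, was at least 5.02-fold higher than in control liver, where no array detected it, and at least 7.92-fold higher without the 4 arrays. Abcd2, a peroxisomal transporter of fatty acyl-CoA, rose by 1.93. The half-site AGGTCA, which thyroid hormone receptors share with other nuclear receptors, was found on either strand within 250 bases before the start of 14 of 97 named genes of this set with a promoter in the table (14.4%). For genes past control on the high side it was found in 2 of 37 (5.41%). The shares were 13.7% of all promoters and 11.2% of those of measured genes. The share of this set was thus near them, and that of the genes past control was below them. Response elements are known to lie elsewhere too. The promoters of Acot5 and Dlat are shown as examples with a half-site in capitals, 17 and 40 bases before the start, from the same table and build. They were picked among the genes with a match, which is a description of the sequence and not a site of binding. Acot5 lies at chr6:109432912-109433061, plus strand, and Dlat at chr8:59900819-59900968, minus strand.
Acot5: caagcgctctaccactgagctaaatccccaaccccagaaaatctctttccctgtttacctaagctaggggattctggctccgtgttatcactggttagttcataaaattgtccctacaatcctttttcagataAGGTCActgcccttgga
Dlat: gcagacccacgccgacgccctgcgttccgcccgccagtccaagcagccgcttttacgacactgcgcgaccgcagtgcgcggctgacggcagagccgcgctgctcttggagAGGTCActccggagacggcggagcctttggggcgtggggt

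Most measured respiratory chain genes were modestly higher than control. Of 51 measured genes of the respiratory chain and ATP synthase 42 were higher and none lower than control at T3 4 d, with a median log2 difference of 0.53, where untreated nodules had 3 higher, 12 lower and a median of -0.07. Without the 4 arrays 41 were higher and none lower. Cytochrome c (Cycs), the electron carrier between complexes, measured 13.96, 14.29 and 14.50 at T3 4 d, 12.72, 12.86 and 13.18 in untreated nodules and 12.76, 12.97 and 13.25 in control liver. T3 4 d arrays were above all others, by 1.31 ± 0.08 against control. Ndufs1, a subunit of complex I, was higher by 1.07. Of 57 mitochondrial ribosomal proteins 27 were higher and 7 lower, with a median of 0.22, where 21.7% of all features were higher and 20.3% lower.

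In the list of pyruvate dehydrogenase and the tricarboxylic acid cycle 20 of 29 were higher and 1 lower, with a median of 0.53, against 7 higher and 12 lower in untreated nodules. Pdhb, a subunit of pyruvate dehydrogenase, measured 13.23, 13.44 and 13.62 at T3 4 d, 10.79, 11.32 and 11.66 in untreated nodules and 11.26, 11.65 and 11.98 in control liver. Only the T3 4 d arrays were set apart, by 1.80 ± 0.11 from control, 3.48-fold. Dlat, the acetyl transferase of the same complex, was higher by 1.68, the pyruvate carrier Mpc2 by 1.62 and citrate synthase Cs by 1.19. Me1, the malic enzyme of the cytosol, had 11.98, 12.55 and 12.83 at T3 4 d, 9.20, 9.52 and 9.99 in untreated nodules and 8.04, 8.87 and 9.54 in control liver. Its T3 4 d arrays lay clear of both other groups, 12-fold above control.

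Among fat oxidation genes more were higher than lower, where 21.7% of all features were higher and 20.3% lower. In mitochondria 13 of 27 were higher and 6 lower, with a median of 0.30 (16 higher, 2 lower and 0.42 without the 4 arrays), and in peroxisomes 12 of 23 were higher and 4 lower, with a median of 0.31, where untreated nodules had none of the 23 higher and 18 lower. The carnitine carrier Slc22a5 rose by 1.65, whereas Acox2, an oxidase of branched and bile acid chains, fell by 1.25 and catalase (Cat) by 0.93. Fatty acid synthesis had 9 of 18 higher, 5 lower and a median of 0.38, and without the 4 arrays 8 higher, 4 lower and a median of 0.11. Srebf1, its transcriptional activator, (-1.17) and the desaturase Fads2 (-0.95) were lower, beside the rises of Me1, Elovl2 and Acaca. Cyp2c23, an arachidonic acid epoxygenase that was not in the nodule state, fell by 3.04, and by 3.71 without the 4 arrays. Its values were 10.87, 11.12 and 13.02 at T3 4 d, 13.80, 14.22 and 14.53 in untreated nodules and 14.43, 14.65 and 15.20 in control liver, with arrays 1, 3, 8 and 9 the highest of the T3 4 d arrays, and no overlap with either group.

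**Figure D4:**
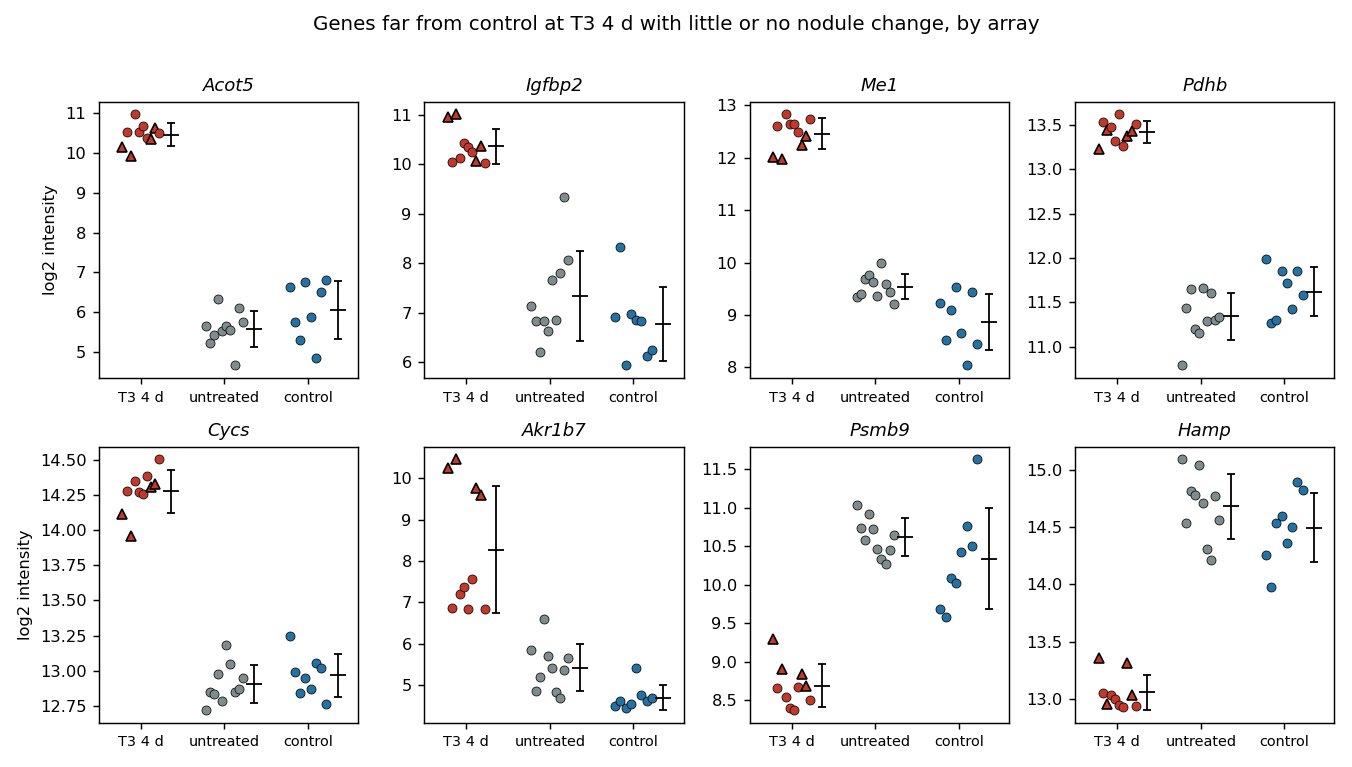
Log2 intensity of 8 genes far from control at T3 4 d that did not belong to the nodule state, by array, with mean ± SD beside each group and triangles for T3 4 d arrays 1, 3, 8 and 9. Me1 among them was called in untreated nodules at less than 2-fold. Acot5, Igfbp2, Me1, Pdhb and Cycs stand above both other groups, Akr1b7 is highest on the triangles, and Psmb9 and Hamp lie below both.

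Part of the immune genes were lower than control at T3 4 d, as were 20.3% of all features. Of 17 measured genes of antigen presentation 7 were lower and 1 higher, with a median of -0.16, where untreated nodules had 10 higher and 3 lower and a median of 0.59. Without the 4 arrays 9 of the 17 were lower and 1 higher at T3 4 d, with a median of -0.52. Psmb9, an immunoproteasome subunit, measured 8.37, 8.67 and 9.30 at T3 4 d, 10.27, 10.61 and 11.04 in untreated nodules and 9.59, 10.26 and 11.63 in control liver. Every T3 4 d array of Psmb9 was below every control array, with a difference of -1.65 ± 0.18, and the peptide transporter Tap1 was lower (-1.28). Hamp, the iron hormone hepcidin, stood at 12.93, 13.02 and 13.36 at T3 4 d, against 13.97, 14.52 and 14.89 in control liver, a fall of 1.44 ± 0.14 with ranges apart. The sphingolipid receptor S1pr2 was lower (-1.83).

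Markers of other cell types moved beside these genes, and of all features 21.7% were higher and 20.3% lower. Of 16 macrophage and Kupffer cell markers 8 were lower and 1 higher than control, with a median of -0.32. In untreated nodules 3 of the 16 were lower and 5 higher, with a median of 0.12. The summed log2 level of the 16 spanned 13.52 to 13.97 at T3 4 d, against 13.89 to 14.55 in control liver. Marco, the scavenger receptor of Kupffer cells, measured 5.36, 7.84 and 8.30 at T3 4 d, 5.89, 7.01 and 8.22 in untreated nodules and 9.93, 10.33 and 10.82 in control liver. The nodule groups overlapped each other and neither reached control, with a difference of -2.83 ± 0.33 at T3 4 d. The complement chain C1qa, made by macrophages, was lower (-1.02). Of 13 lymphocyte markers 6 were lower and none higher, where untreated nodules had 3 lower and 2 higher. Their summed log2 levels were 9.53 to 9.90 at T3 4 d, against 10.11 to 10.94 in control liver, and the cytotoxic granule protease Gzma was lower (-1.81). Their part in the lower immune genes was not tested.

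Of 18 markers of stellate cells, fibroblasts and matrix 6 were higher and none lower at T3 4 d, with a median of 0.26, where untreated nodules had 14 higher and a median of 1.01. The matrix proteins Mgp (2.01) and Dcn (1.83) remained above control on every array. Without the 4 arrays 5 were higher, with a median of 0.04. With every array kept, 21.7% of all features were higher. The summed log2 level of the list was 12.91 to 14.05 at T3 4 d, against 12.36 to 12.91 in control liver. Of 12 cholangiocyte markers 6 were higher and none lower, with summed log2 levels of 12.43 to 13.28 at T3 4 d, against 11.59 to 12.93 in control liver, and 3 were higher without the 4 arrays. This list holds Krt19, Epcam, Prom1 and Onecut1, described above, and its part in their levels was not tested. No marker of the macrophage, lymphocyte or stellate cell lists was below detection on all arrays of either group. The mean log2 level of the lymphocyte list was 5.58 to 5.97 at T3 4 d, against 6.04 to 6.77 in control liver. Over all arrays the lowest detected level ranged from 5.19 to 5.69, so at T3 4 d this list lay near background.

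Acute-phase, coagulation and complement proteins were lower in 13 of 32 and higher in 3, with a median of -0.29. Lbp, which binds bacterial lipopolysaccharide, was higher by 1.51, a call that ended without the 4 arrays (0.60, limma adjusted p = 0.0999). Of 23 chaperones and regulators of the unfolded protein response 9 were higher and 4 lower. Over all features 21.7% were higher and 20.3% lower, so lower genes were no more frequent in this list. Edem1, which removes misfolded glycoproteins, rose by 1.72 and the pseudokinase Trib3 by 1.61, while the disulfide isomerase Pdia3 fell by 0.75. Mature hepatocyte genes numbered 14 lower and 3 higher of 38 (10 and 3 without the 4 arrays), with a median of -0.06, against 26 lower and a median of -0.58 in untreated nodules. Hnf4a, the nuclear receptor of hepatocyte identity, did not pass the test (-0.08, limma adjusted p = 0.798), and Foxa2, a liver-enriched forkhead factor, was higher by 1.21.

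**Figure D5:**
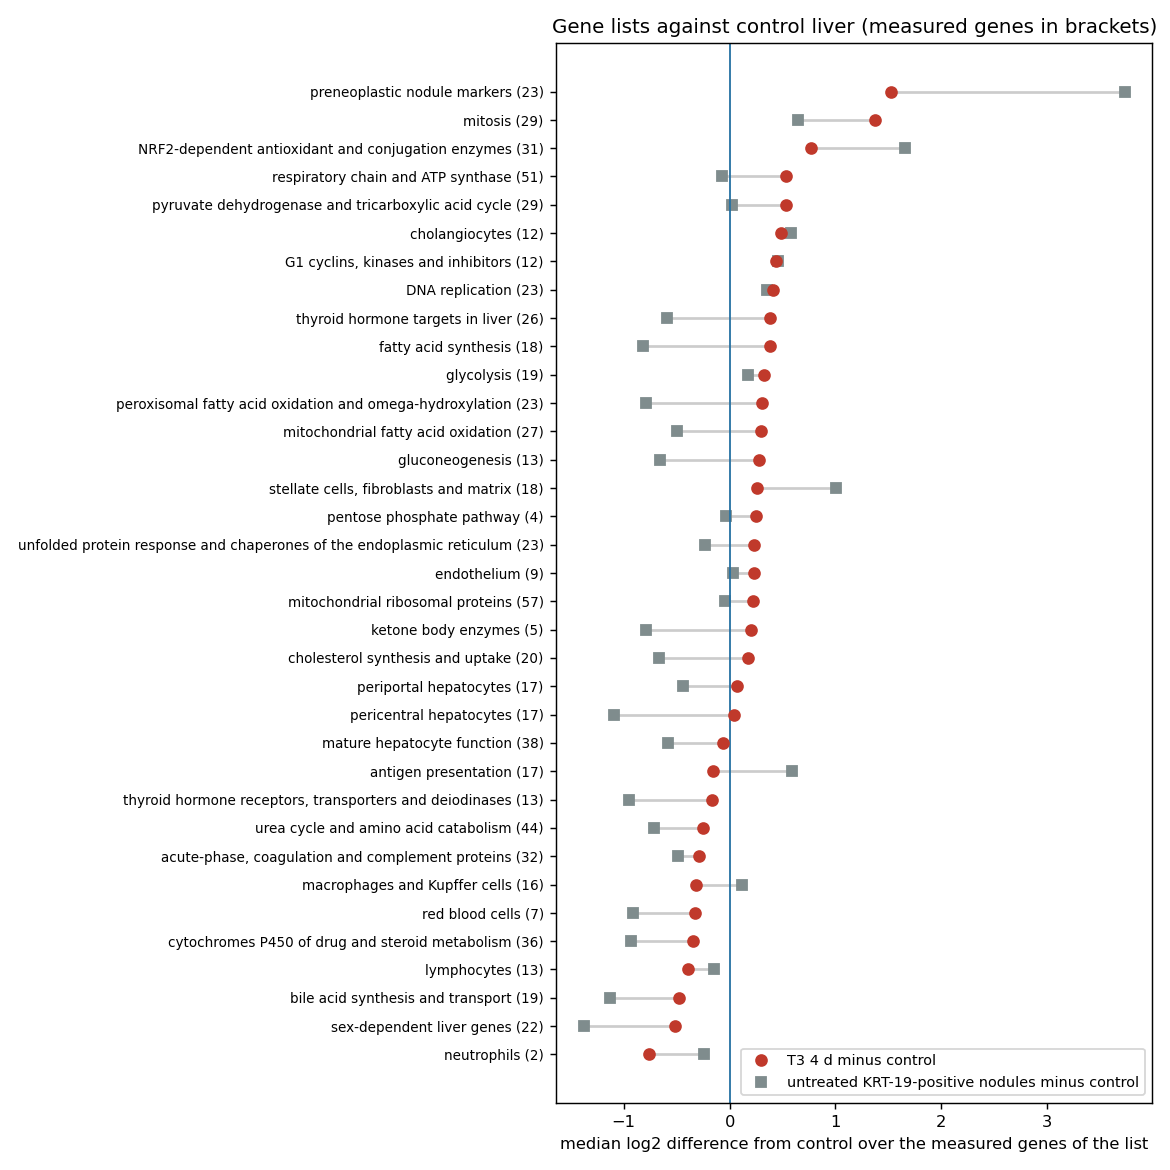
Median log2 difference from control over the measured genes of each of 35 lists, for T3 4 d (circles) and untreated KRT-19-positive nodules (squares), with the number of measured genes in brackets. Preneoplastic markers and NRF2-dependent enzymes lie above control and below their untreated value, mitosis genes lie above their untreated value, and respiratory chain genes lie above control with an untreated median of -0.07. The endothelium median, 0.23 here, turned to -0.17 with a stricter detection filter.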

How the data were processed

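Total RNA of 48 rat liver samples was hybridised by the authors to one-colour Illumina bead arrays, per the labels' protocols, and read with BeadStudio 3.0.19.0, per the submitters' processing notes. The deposited table gives a bead intensity for each of 22523 probes on a linear scale, not normalised, and per the file headers a detection p-value for each intensity, from which negative control beads were inferred. A second deposited table holds the authors' quantile normalised intensity values and served as an alternative after log2 transformation. No source used here names a genome build or annotation version.

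The neqc method (limma 3.58.1, R 4.3.3, offset 16) corrected the background, normalised by quantiles and took log2. A probe entered the tests if 8 or more arrays detected it at p under 0.05, which left 11723. The probe with the highest mean stood for its gene, leaving 11558 features, 8223 of them named by the platform annotation. A linear model with a mean for each group took in the whole set of 48 arrays, with empirical Bayes moderation and a trend, and p-values were adjusted by Benjamini-Hochberg over all features. A call is an adjusted p under 0.05. The steps were tested on simulated data. "At least" folds set the brighter group against the lowest detected level where the other group was below detection on every array. They were computed with this background correction alone. Over the alternative settings the smallest fitted log2 difference of Ropn1 was 1.47. The number of arrays limits the precision.

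Members of the nodule state, classes, gene lists and named genes were chosen with earlier results of these data known. Named genes were those with the largest differences among all genes, per class and direction or per list, together with a fixed set of markers and T3 targets. Alternatives covered normalisation, filters, blocks, weights, thresholds and each array left out. Promoters came from RefSeq (GRCr8), and both strands were searched.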

Additional observations from a re-analysis of the deposited data

Results flagged for a closer look

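In 11 of 252 groups tested, each the T3 4 d or the control arrays of 1 named gene, a single array lay apart from the rest of its group by Dixon's criterion, and chance gives about 1 in 20. At T3 4 d, Igf2 was 6.18 on array 10, where the next highest was 5.22, and Ltc4s was 5.45 on array 6, where the next was 5.02. Both genes were otherwise near background there. In control liver, array 2 stood apart for Igfbp2 at 8.32 (next 6.97), for Gsta2 at 12.13 (next 12.83) and for Nefl at 4.88 (next 4.66). Control array 5 was high for Gpx2 at 7.03 (next 6) and for Akr1b7 at 5.42 (next 4.77). Control array 8 was low for Cd24 at 6.07 (next 6.76) and high for Abcd2 at 5.74 (next 5.05). Control array 3 was low for the hepatocyte receptor Hnf4a at 5 (next 6.31), and control array 1 was low for the bile acid enzyme Cyp7a1 at 10.4 (next 11.5). Arrays 1, 3, 8 and 9 at T3 4 d, which lay apart together, are not found by a criterion that looks for 1 array.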

How the results depend on the processing

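Of the 112 named genes called at T3 4 d against control, 102 kept their direction and call in every alternative setting in which they were tested. That was all 44 settings for 94 of them, while the other 8 had no value with the strict detection filter. Of the 44 settings 28 left out 1 array each. The call was lost in at least 1 setting for Defb1, Nefl, Abcc3, Epcam, Lbp, Afp, Obp3, Cebpa, Thrsp and Thra. Alb, not called, turned to -0.339 (limma adjusted p = 0.0451) under median scaling, and the endothelium median turned to -0.17 with the strict detection filter. The causes were not tested. Fold-based counts depended on background correction. With quantile normalisation alone 354 features were called at 2-fold, 442 remained, 41 passed control, 224 were not called and 64 lay outside the nodule state, and the authors' value table gave 367, 449, 41, 224 and 65. An offset of 50 gave 549 at 2-fold, 349 not called and 108 outside. Median scaling gave 2995 called and 1139 of the nodule state not called, with 626 above and 168 below control among those that remained and 16 above and 63 below among those past it. With no minimum fold for the nodule state 2304 remained, 609 passed control and 2716 were not called, and at 4-fold these were 241, 2 and 104.

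With 1 array left out, 4578 to 4871 features were called, 801 to 890 at 2-fold, and 699 to 765 remained, 63 to 81 passed control, 500 to 572 were not called and 203 to 240 lay outside. Untreated nodules against control then gave 5390 to 5656 calls, and T3 4 d against untreated nodules 6004 to 6262. The title numbers did not pair T3 4 d with control arrays: correlations of same-numbered deviations ran from -0.13 to 0.09, and 1 of 8 was best with its own number. With the title number as a replicate block 4723 features were called, 836 at 2-fold, 721 remained, 69 passed control, 534 were not called and 221 lay outside. Signal near background bounds the folds of genes undetected in control.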
